A study of Mus musculus with 6 samples.

Results

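The 9 genes described here encode the co-stimulatory branch of osteoclast formation that runs through the immunoreceptor tyrosine-based activation motif (ITAM). They are the adaptors Tyrobp and Fcer1g, the receptors Trem2, Oscar and Sirpb1a, the kinase Syk, the phospholipase Plcg2 and the Tec family kinases Btk and Tec. They were chosen by name, out of 18193 genes with at least 1 probe set that the platform annotation assigns to a single symbol, and 14 probe sets represent them. Their levels come from 6 Affymetrix Mouse Genome 430 2.0 arrays, each hybridised with RNA of bone marrow macrophages of c57BL/6 mice that lack both TNF receptors (TNFR1-/-R2-/-). A retrovirus brought in a chimeric receptor with the outer domain of mouse TNFR1 on the transmembrane and inner domains of mouse RANK, and cells that took it up were selected with puromycin (2 ug/ml, 3 days). In the mutant group (n = 3 arrays) the IVVY motif of the RANK part carried inactivating mutations, and the wild-type group (n = 3 arrays) had an intact RANK part. Both groups were treated with M-CSF (44 ng/ml) and TNFα (10 ng/ml) for 24 hours in medium with 10% serum. Each array held the pooled RNA of 6 dishes, the preparation was made in 3 independent assays, and mutant and wild-type arrays share the numbers 1 to 3. Here an assay means the mutant and the wild-type array of the same number. This pairing was read from the numbers in the sample titles, which do not state it. The sources used here give neither the age, sex and number of the mice nor the level of the introduced receptor. The study asked which genes depend on the IVVY motif.

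Osteoclasts form when RANK ligand acts on macrophage precursors, but RANK alone is not enough. A second signal comes from adaptors whose ITAM tyrosines are phosphorylated by SRC family kinases. Tyrobp encodes DAP12, which carries the signal of TREM2 and of SIRP beta receptors, and Fcer1g encodes the Fc receptor gamma chain, which carries that of OSCAR. The phosphorylated motif recruits the kinase SYK, and BTK and TEC then help to activate phospholipase C gamma 2. The calcium release that follows keeps NFATc1, the leading transcription factor of osteoclasts, in the nucleus.

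The upstream sequences of 2 receptor genes are shown, because Oscar read at background on all but 1 array while Trem2 read above it on every array. Each is the 250 bases before the RefSeq gene start on assembly GRCm38.p6, at chr7:3616158-3616407 on the minus strand for Oscar and at chr17:48346151-48346400 on the plus strand for Trem2, read 5′ to 3′ towards the gene.
Oscar: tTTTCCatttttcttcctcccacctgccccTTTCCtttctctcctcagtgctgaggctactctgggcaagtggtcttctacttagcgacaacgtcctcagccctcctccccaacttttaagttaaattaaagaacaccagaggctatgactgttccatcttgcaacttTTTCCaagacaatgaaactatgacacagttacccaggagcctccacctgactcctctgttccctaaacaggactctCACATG
Trem2: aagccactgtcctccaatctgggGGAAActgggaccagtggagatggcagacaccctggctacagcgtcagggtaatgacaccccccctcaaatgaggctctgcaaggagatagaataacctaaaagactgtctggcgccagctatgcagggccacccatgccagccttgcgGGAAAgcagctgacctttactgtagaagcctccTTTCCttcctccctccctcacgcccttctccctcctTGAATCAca
Capitals mark matches, on either strand, to the core of NFAT sites (GGAAA) and the core of the M-box bound by MITF (CATGTG). They also mark a loose form of the AP-1 site (TGANTCA, where N is any base), and no matches overlap. NFATc1 and MITF are known to act on the Oscar promoter. Oscar held 3 NFAT cores, the nearest beginning 82 bases before the gene start, and 1 M-box core beginning 6 bases before it, with 0 AP-1 matches. Trem2 held 3 NFAT cores, 1 match to the loose AP-1 form (TGAATCA) beginning 9 bases before the gene start and 0 M-box cores. Of 32851 RefSeq windows of this length, 55.6% held at least 1 NFAT core, 6.39% at least 3, 12.3% an M-box core and 6.75% an AP-1 match. These are matches of letters only. An entry was found for 8 of the 9 genes, and the other windows held 0 to 2 NFAT cores and neither of the other motifs.

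Intensities lie on a linear scale, and the median of all probe sets was 8.86 to 9.38 on the 6 arrays, near the floor to which dim probe sets are flattened. Intensities of different probe sets depend on their probes and are not set against each other. All 10 macrophage markers chosen for the check, among them Csf1r and Adgre1, read above the median, and their summed intensity was 192620 to 211064 on the mutant and 193760 to 204995 on the wild-type arrays. B cells, NK cells, mast cells, neutrophils and megakaryocytes also use ITAM genes. All measured markers of B cells (7), NK cells (5) and mast cells and basophils (7) read below 16 on every array. So did 6 of 7 neutrophil markers, except S100a8, and 4 of 6 megakaryocyte markers, except Pf4 and Ppbp, and 5 of 7 dendritic cell markers, except Itgax and Ccr7. Stromal markers separated assay 3, where they summed to 7560 on the mutant and 5602 on the wild-type array, from assays 1 and 2, where the sums were 240 and 459 on mutant and 208 and 382 on wild-type arrays. The part of stromal cells in the assay differences below was not tested. Fewer cells of a type and less RNA per cell cannot be told apart in such bulk samples.

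Both adaptors were bright on every array, and neither passed the test. Tyrobp read 25962, 26238 and 25358 on mutant arrays 1, 2 and 3, and 26346, 26440 and 25999 on wild-type arrays 1, 2 and 3. The groups overlapped, and the 6 readings lay within 1.04-fold of each other. The highest intensity on any array, 85976, belonged to another probe set, and whether the Tyrobp probes were near saturation was not tested. Tyrobp differed by -0.02 ± 0.08 SE on the log2(intensity + 16) scale used for all differences here, mutant minus wild type. Within assays 1, 2 and 3 it differed by -0.02, -0.01 and -0.04. Every SE given with a difference is that of the limma fit of the 2 groups, which does not pair the arrays by assay. Fcer1g read 17241, 15509 and 15503 on the mutant arrays and 18938, 14524 and 14821 on the wild-type arrays. Both arrays of assay 1 were the highest of their groups, and the groups overlapped. Its difference was 0.01 ± 0.14 SE, with -0.14, 0.09 and 0.06 within assays 1, 2 and 3, so its sign was not the same in all assays.

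**Figure D1:**
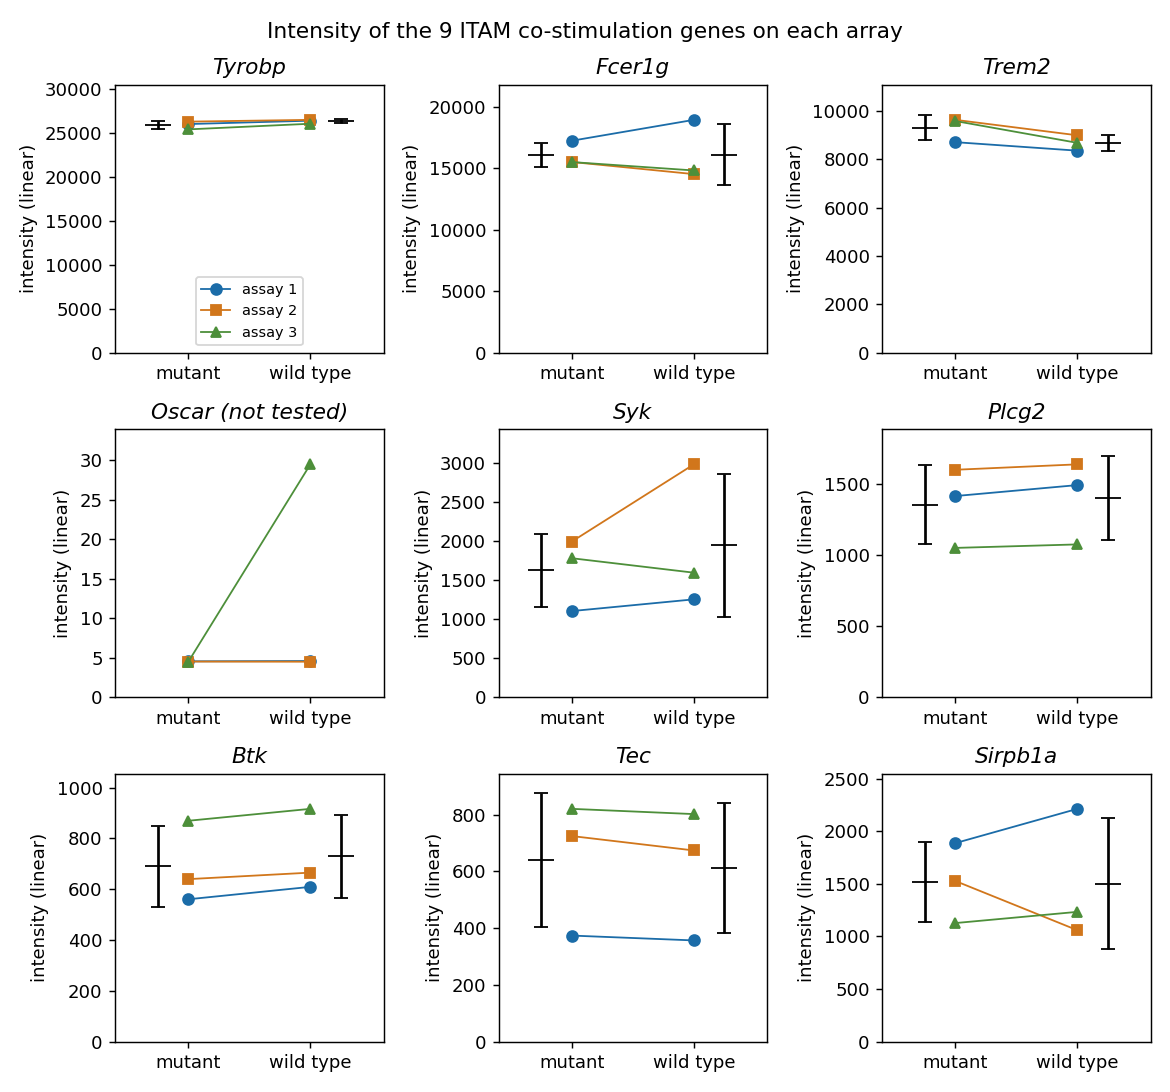
Each panel plots 1 gene by its brightest probe set, with linear intensity from 0 on the vertical axis, mutant arrays on the left and wild-type arrays on the right. Lines join arrays of the same assay, and the black bars give mean ± SD (n = 3), left out for Oscar, which was not tested. Apart from Oscar, Syk and Sirpb1a, the lines run nearly level, and for Plcg2, Btk and Tec the assays lie farther apart than the groups.

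Among the receptors, Trem2, which binds lipids and lipoproteins and signals through DAP12, read 8710, 9634 and 9585 on mutant arrays 1, 2 and 3, and 8359, 8995 and 8682 on wild-type arrays 1, 2 and 3. It was higher in the mutant within each assay, by 0.06, 0.10 and 0.14, but mutant array 1 read below wild-type array 2, so the groups overlapped. The difference of 0.10 ± 0.09 SE did not pass. A second Trem2 probe set lay near the floor, at 10.8 to 12.2 on mutant and 10.1 to 11.5 on wild-type arrays.

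Oscar, the collagen-binding receptor that signals through the Fc receptor gamma chain, was at background on 5 of the 6 arrays. Its probe set 1425442_at read 4.54, 4.51 and 4.50 on mutant arrays 1, 2 and 3, and 4.58, 4.49 and 29.5 on wild-type arrays 1, 2 and 3. The second, 1451710_at, read 5.33, 5.52 and 5.30 on the mutant arrays and 5.69, 6.49 and 23.1 on the wild-type arrays. The readings at background lay below the array medians, also where those of the second did not overlap between the groups. Both probe sets stood out on wild-type array 3 alone, and both were too dim for the test, so Oscar has no call. Within assays 1 and 2 both differed by at most 0.06, and within assay 3 by -1.15 and -0.88. The brighter differed by -0.38 on average, and with dim probe sets let into the fit it did not pass limma's test. This size depends on the pseudocount, at -0.83 with 1 and -0.15 with 64, and on wild-type array 3, without which it was -0.0013. Wild-type array 3 was also the highest of the 6 for 9 of the 10 osteoclast markers, and for 14.6% of all tested probe sets. These shares are not alike, because most of the markers were higher in the wild type. Their highest array was therefore mostly a wild-type array in any case. Of 45037 probe sets, those that read above 16 on a single array and below the median on every other numbered 7 to 18 for each mutant array, 3 and 10 for the other wild-type arrays and 54 for wild-type array 3. Among the 54 were the dendritic cell marker Ccr7, at 103 against at most 6.50 elsewhere, and the stromal marker Dcn, at 62.9 against at most 4.67. Each was the only marker of its list highest on this array, of 7 measured dendritic cell and 8 stromal markers. The part of other cells in the Oscar reading was not tested.

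Sirpb1a encodes a signal regulatory protein that pairs with DAP12. Its probe set read 1886, 1526 and 1127 on mutant arrays 1, 2 and 3, against 2212, 1059 and 1233 on wild-type arrays 1, 2 and 3. The mutant was higher in assay 2 (log2 difference 0.52) and lower in assays 1 and 3 (-0.23 and -0.13), with a mean of 0.05 ± 0.34 SE. A further probe set annotated with Sirpb1a and its close relatives Sirpb1b and Sirpb1c was left out of the rule. Its readings were 4570, 3691 and 3183 on mutant and 5095, 3849 and 3387 on wild-type arrays, slightly lower in the mutant in every assay, including assay 2 (-0.06), where the Sirpb1a probe set was higher. The 2 probe sets therefore disagreed in assay 2.

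Syk, the kinase that binds phosphorylated ITAMs, was the tested gene with the widest gap between the groups, and its probe sets disagreed. The brightest, 1418261_at, read 1103, 1995 and 1780 on mutant arrays 1, 2 and 3, and 1254, 2984 and 1595 on wild-type arrays 1, 2 and 3. Wild-type array 2 was the highest, and the other readings of the groups were interleaved. The difference was -0.20 ± 0.40 SE, with -0.18, -0.58 and 0.16 within assays 1, 2 and 3. Without both arrays of assay 2 it was -0.01, and without wild-type array 2 alone it was 0.16.

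Of the other Syk probe sets, 1418262_at and 1425797_a_at repeated the gap in assay 2 at other sizes. On 1418262_at the differences within assays 1, 2 and 3 were -0.34, -0.89 and 0.14, with a mean of -0.36 ± 0.26 SE. On 1425797_a_at they were -0.23, -1.86 and -0.03, with a mean of -0.71 ± 0.75 SE. This probe set read 379, 78.8 and 622 on the mutant arrays and 448, 328 and 636 on the wild-type arrays, so both arrays of assay 2 were the lowest of their groups, whereas on 1418261_at both were the highest. The fourth, 1457239_at, read 10.7 to 31.3 on mutant and 12.9 to 26.9 on wild-type arrays and differed by -0.03 ± 0.30 SE. Within assays 1, 2 and 3 it differed by -0.12, -0.11 and 0.14, so assay 2 did not stand out. No Syk probe set passed, and the sources used here do not say which transcripts each one reads.

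**Figure D2:**
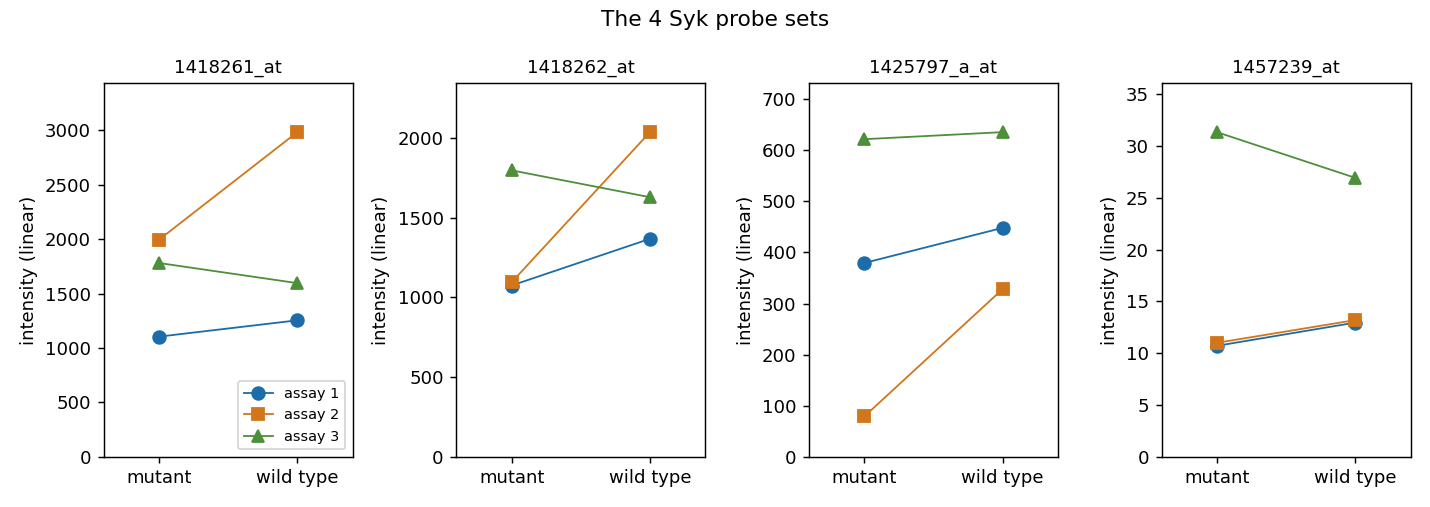
The panels plot the 4 Syk probe sets, with linear intensity from 0 on the vertical axis, mutant arrays left and wild-type arrays right, and a line for each assay. On the first 3 panels assay 2 (squares) was lower in the mutant than in the wild type, and the rank of assay 2 among the assays differs between panels.

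Downstream of SYK the assays separated and the groups did not. Plcg2, which cleaves a membrane lipid to release calcium, read 1414, 1599 and 1050 on mutant arrays 1, 2 and 3, and 1491, 1637 and 1074 on wild-type arrays 1, 2 and 3. It was lower in the mutant in every assay (-0.08, -0.03 and -0.03), and both arrays of assay 3 were the lowest of their groups. Its difference was -0.05 ± 0.23 SE. Btk, the kinase mutated in X-linked agammaglobulinaemia in humans, read 561, 640 and 870 on the mutant arrays and 610, 666 and 917 on the wild-type arrays. It too was lower in the mutant in every assay (-0.12, -0.06 and -0.07), with both arrays of assay 3 the highest, and differed by -0.08 ± 0.23 SE. Tec, its relative, read 374, 725 and 821 on the mutant arrays and 357, 674 and 802 on the wild-type arrays. Both arrays of assay 1 were the lowest, and the mutant was higher in every assay, by 0.06, 0.10 and 0.03, with a mean of 0.07 ± 0.43 SE. The assay accounted for 99.0% of the sum of squares of Plcg2, 97.2% of that of Btk and 99.4% of that of Tec, and the group for 0.857%, 2.57% and 0.466%. Over all tested probe sets the median shares were 76.0% for assay and 4.82% for group. The assay held over 80% for 6 of the 8 tested genes, and its smallest share was 50.6%, for Trem2.

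None of the 8 tested genes passed limma's test with Benjamini-Hochberg adjustment over all 22497 probe sets (adjusted p = 0.99998 for each), and 0 had an unadjusted p under 0.05. In all, 0 probe sets passed, so percent called was 0, and 0.880% had an unadjusted p under 0.05. With the replicate number as a block 0 members had an unadjusted p under 0.05, against 5.29% of all probe sets, and the smallest adjusted p by limma among members was 0.866, for Trem2. A p that misses the threshold does not show that the groups were alike, and the intervals bound the size instead. The 95% intervals of the fold, mutant over wild type, in the fit without a block were 0.856 to 1.13 for Tyrobp, 0.789 to 1.28 for Fcer1g and 0.912 to 1.26 for Trem2. For Plcg2 they were 0.644 to 1.45, for Btk 0.629 to 1.42, for Tec 0.498 to 2.20, for Sirpb1a 0.572 to 1.88 and for Syk 0.435 to 1.74. The SE of this fit also holds the differences between assays. With the replicate number as a block they were 0.908 to 1.21 for Tec, 0.819 to 1.09 for Btk, 0.840 to 1.11 for Plcg2 and 0.630 to 1.20 for Syk.

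Tyrobp, Plcg2 and Btk were lower in the mutant in every assay, 3 of the 8 tested genes, against 11.7% of all tested probe sets. Trem2 and Tec were higher in every assay, 2 of 8, against 13.8%. The groups did not overlap for 0 of the 8, against 1.59% of all probe sets lower and 1.47% higher. The median difference was -0.01 over the 8 genes and 0.00 over all probe sets. All 3 within-assay differences lay within 0.2 of 0 for 6 of the 8 genes, all but Syk and Sirpb1a, a band chosen after the values were seen. This held for 27.6% of all tested probe sets, and for 26.6% of those with a mean intensity over 300, as all 8 have.

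On the same arrays most osteoclast markers were lower in the mutant. Of the 9 markers tested, 8 were lower in every assay and 7 did not overlap, against 11.7% and 1.59% of all probe sets, with a median difference of -1.97. None passed over all probe sets (limma, smallest adjusted p = 0.182 with the replicate number as a block). Within assays 1, 2 and 3 Acp5, the osteoclast acid phosphatase, differed by -3.10, -4.00 and -3.51. The brightest probe set of Nfatc1, on which the ITAM signal converges, differed by -0.08, 0.06 and 0.07, and its groups overlapped. The next brightest, 1417621_at, read 312, 274 and 170 on mutant and 478, 536 and 540 on wild-type arrays, without overlap, and its difference of -1.03 ± 0.23 SE did not pass by limma. The remaining 3 Nfatc1 probe sets, near the floor on mutant arrays, were also lower without overlap. Of these, 1447084_at was too dim for the test, and its array 1 readings were 8.20 on mutant and 8.63 on wild type. In assay 3, 1447085_s_at differed by only -0.03. The Nfatc1 probe sets therefore disagreed. The contrast between the ITAM genes and these markers was not tested as a difference.

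**Figure D3:**
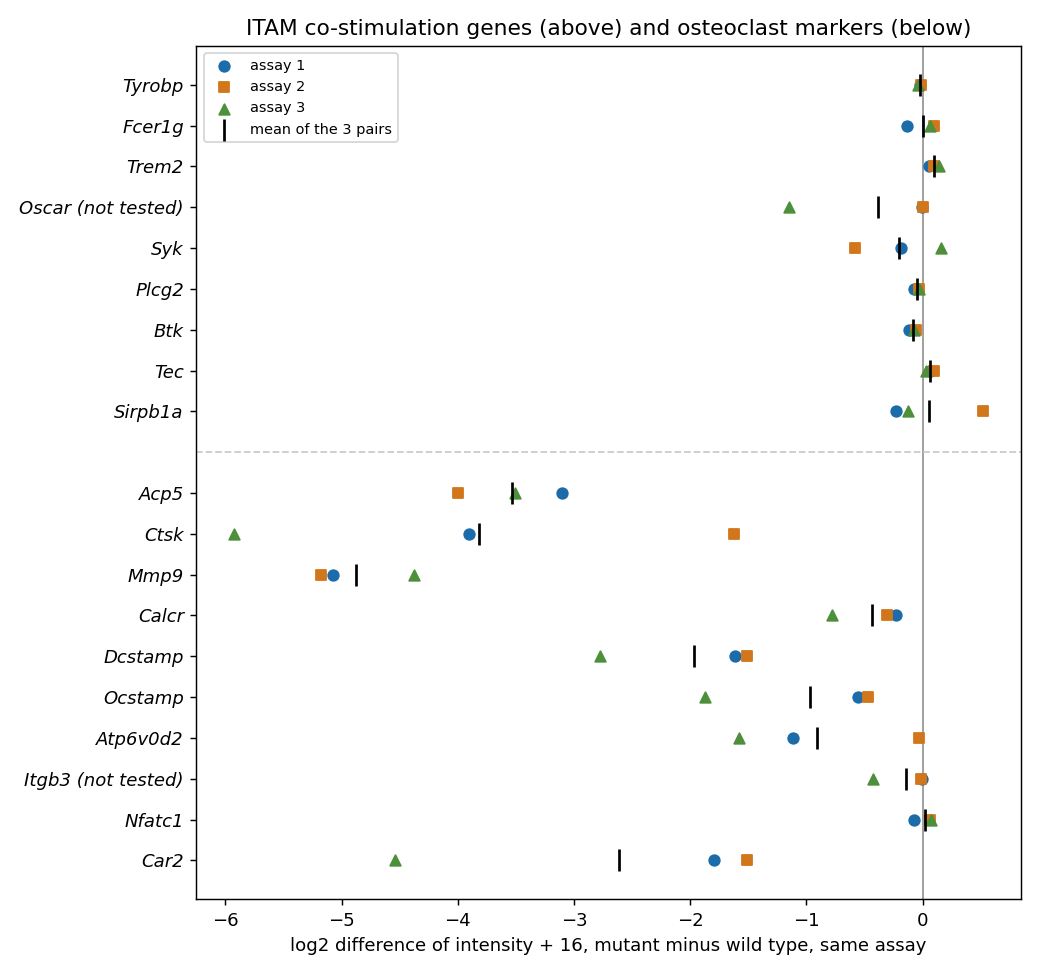
Points give the log2 difference of intensity + 16, mutant minus wild type, within each assay, and black ticks the mean of the 3, for the 9 ITAM co-stimulation genes above the dashed line and 10 osteoclast markers below it. The ITAM genes cluster at 0 except for Oscar in assay 3 (-1.15), Syk in assay 2 (-0.58) and Sirpb1a in assay 2 (0.52), while Acp5, Ctsk and Mmp9 lie well to the left in every assay.

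Neighbouring genes of the pathway were described by 4 lists, none of which had a gene that passed by limma. The first list held receptors that pair with ITAM adaptors, and also related genes that do not, among them the adaptor gene Hcst. Of its 18 tested genes, 10 averaged lower and 8 higher in the mutant, and the median difference was -0.05. Clec4n, which encodes Dectin-2, read 1195, 1508 and 4771 on mutant and 2975, 5078 and 5855 on wild-type arrays, lower in every assay (-1.11 ± 0.59 SE). Clec4e, which encodes Mincle and signals through the Fc receptor gamma chain as Dectin-2 does, read 3708, 719 and 5563 on mutant and 5548, 1604 and 8049 on wild-type arrays, also lower in every assay (-0.75 ± 0.98 SE). Hcst, which encodes the adaptor DAP10, differed by 0.30 ± 0.27 SE and Treml1 by 0.48 ± 0.49 SE, both with mixed signs within assays. With the replicate number as a block (limma), 4 of the 18 genes of this list had an unadjusted p under 0.05, against 5.29% of all probe sets. They were Clec4n, Clec4e, Treml4 and Fcgr4, all lower. Under the same fit this held for 4 of 22 kinases and scaffolds (Src, Prkcd and Fgr lower, Lat2 higher), 2 of 16 genes of the calcium steps (Stim2 lower, Camk2d higher) and 2 of 19 brakes (Ptpn22 lower, Dok2 higher). Treml4, Fcgr4 and Lat2 were named after their values were seen.

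Of 22 tested proximal kinases and scaffolds, 12 were lower and 10 higher, with a median of -0.02, and 2 had an unadjusted p under 0.05 (limma), Src and Prkcd. Src, a kinase that phosphorylates ITAMs and is needed for bone resorption, read 8.95, 10.7 and 26.5 on mutant and 30.0, 65.1 and 68.4 on wild-type arrays, without overlap. Its mutant readings lay near the floor, so the size of its difference (-1.16 ± 0.33 SE) depends on the pseudocount. Prkcd, a protein kinase C, read 2883, 2290 and 3460 on mutant and 4018, 3922 and 3793 on wild-type arrays, also without overlap (-0.46 ± 0.17 SE). Fgr, another SRC family kinase, differed by -1.04 ± 0.41 SE. Vav1, a guanine nucleotide exchange factor downstream of SYK, differed by 0.21 ± 0.10 SE, and all its mutant readings (844, 896 and 977) lay above the wild-type readings (810, 740 and 789).

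Of 16 tested genes of the calcium steps, 10 were lower and 6 higher, with a median of -0.07. Stim2, a calcium sensor of the endoplasmic reticulum, differed by -0.27 ± 0.14 SE without overlap, and Camk2d, a calmodulin-dependent kinase, by 0.66 ± 0.38 SE. The store-operated channel genes Orai1 and Orai2 differed by -0.23 ± 0.16 and -0.25 ± 0.20 SE, with mixed signs. Within assays 1, 2 and 3 Orai1 differed by -0.40, -0.49 and 0.18, and Orai2 by 0.02, -0.66 and -0.11. Of 19 tested brakes on ITAM signalling, 7 were lower and 12 higher, with a median of 0.07. Ptpn22, a tyrosine phosphatase, read 196, 166 and 109 on mutant and 290, 240 and 217 on wild-type arrays (-0.64 ± 0.23 SE), without overlap and with an unadjusted p by limma of 0.0379. Dok2, an adaptor that restrains tyrosine kinase signals, differed by 0.57 ± 0.47 SE and was higher in every assay. Dgka, which removes diacylglycerol, differed by -0.21 ± 0.19 SE, and Socs3, a suppressor of cytokine signals, by -0.48 ± 0.49 SE, both with mixed signs within assays. None of these passed over all probe sets.

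**Figure D4:**
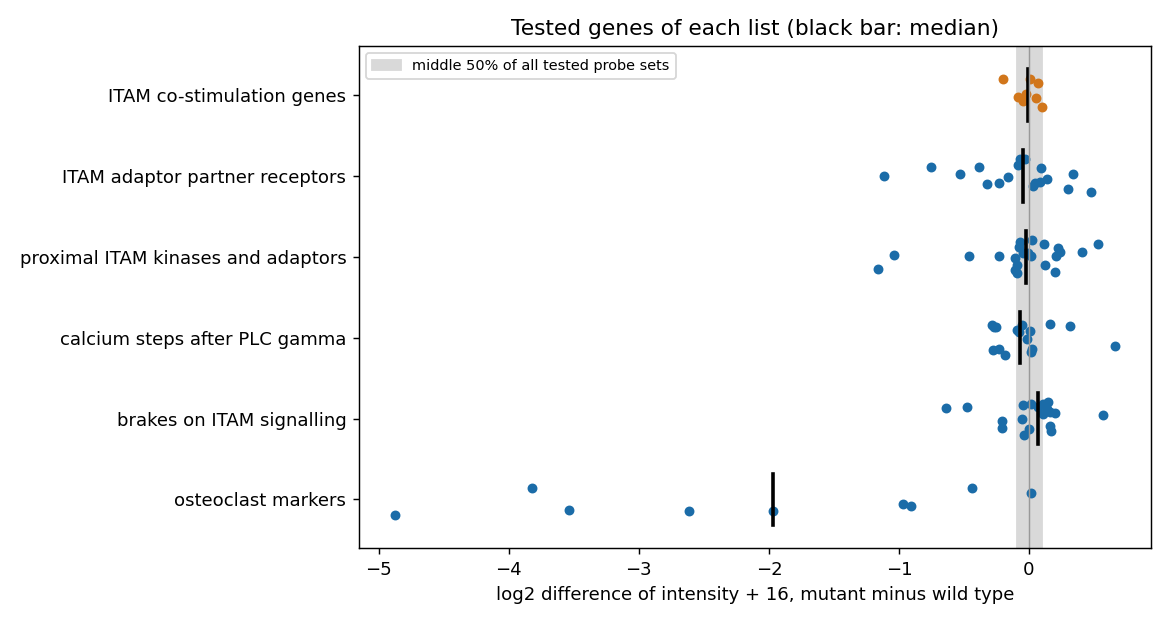
Each point is a tested gene, placed by its log2 difference of intensity + 16, mutant minus wild type, in 6 lists, with the median as a black bar and the middle 50% of all tested probe sets in grey. The ITAM co-stimulation genes, at the top, span -0.20 to 0.10, and the osteoclast markers, at the bottom, have a median of -1.97.

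The genes whose pattern over the 6 arrays was most like that of a member were found by Pearson's r of the log2 values among 10362 other genes, as a description. The arrays share their assays, so they are not independent, and high values are common. For Plcg2, 379 genes had r over 0.95, for Btk 231, for Tec 161, for Syk 96, for Sirpb1a 44, for Fcer1g 25, for Tyrobp 20 and for Trem2 7. The closest to Plcg2 were Mmab and Cers5 (r = 0.999 and 0.998), to Btk Fbxo32 and Irgm2 (0.997 and 0.996), and to Tec Kdm4a and Aak1 (0.994 and 0.992). For Syk they were Slc11a2 and Ulk1 (0.989 and 0.987), and for Sirpb1a Niban1 and H2-Aa (0.991 and 0.989). For Tyrobp they were Aen and Ppp1r16a (0.988 and 0.984), for Fcer1g Ceacam18, which lay near the floor, and Fbxo30 (0.992 and 0.990), and for Trem2 Ywhaq and Snrnp70 (0.971 and 0.969).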

How the data were processed

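The authors deposited 1 intensity for each probe set on each array, on a linear scale. GCOS and GCRMA are named in the submitters' processing notes, with neither versions nor order. GCRMA flattens dim probe sets towards a floor and makes arrays alike in distribution. No further normalization was applied. Of 45101 probe sets 64 controls were left out. The platform annotation gave 1 symbol for 34945, several for 932 and none for 9160. Values were transformed to log2(intensity + 16), and a probe set was tested if it lay above its array's median on at least 3 arrays (22497 probe sets, 12 of the 14 of these genes). The probe set with the highest mean over the 6 arrays represents a gene. Groups and replicate numbers come from the sample titles. They were compared with limma 3.58.1 in R 4.3.3, two-sided, without a block, and adjusted p under 0.05 (Benjamini-Hochberg) passed. On simulated data the fits were checked only for the median size of planted differences, all larger than those of the tested members. That check set no requirement on which probe sets passed.

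Deviations from group means correlated at 0.797, 0.671 and 0.845 between same-numbered arrays and at -0.618 to -0.0138 between others. The deviations of a group sum to 0, so positive values between same-numbered arrays force the others to be negative on average. The log2 values themselves correlated at 0.991, 0.982 and 0.991 between same-numbered mutant and wild-type arrays and at 0.937 to 0.971 between others. The labels describe independent assays and the pairing by number was read from the titles, so differences are also given within same-numbered arrays. The main fit did not use this pairing, and its SE also holds the differences between assays. Only the fits with the replicate number as a block used it. For Tec the SE was 0.43 without and 0.074 with the fixed block. Whether the assays used different mice is not given, so p-values of the main fit measure the spread between these preparations. Those of the fixed block measure the spread of the within-assay differences between them. Named were all members, of each pathway list the 4 genes with the smallest p, and the 2 genes most like each member. The members, lists and motifs were chosen with earlier results of these data known. Of the 106 pathway genes listed 17 had no probe set with 1 symbol. Upstream sequences are RefSeq's (GRCm38.p6).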

Additional observations from a re-analysis of the deposited data

How the results depend on the processing

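With 3 arrays a group the precision is limited by the number of arrays, and dim probe sets, Oscar's among them, by the floor. The settings tried were pseudocounts of 1 and 64, no filter on dim probe sets, the filter at the 70th percentile, quantile normalization, scaling to the same 75th percentile, the replicate number as a fixed or random block, the mean of a gene's probe sets, and leaving out each array or each assay. Under each of them 0 members passed by limma. The number lower in every assay was not counted for the block fits or for leaving out single arrays. Under the other settings it was 2 to 4, with 2 under quantile normalization, 4 without assay 2, 4 without assay 3 and 3 otherwise. A fixed replicate block passed 0 probe sets and a random one passed 1, Gpc1 (limma, adjusted p = 0.0499), named after its value was seen; the block changed no other call. Outside the settings that leave out arrays, the members kept their direction except Tyrobp, at 0.0041 with quantile normalization. Leaving out single arrays, which unbalances the assays, turned directions, and so did leaving out whole assays for Fcer1g and Sirpb1a; the cause was not tested. The log2 differences then ranged from -0.26 to 0.089 for Btk, -0.061 to 0.13 for Fcer1g, -0.23 to 0.12 for Plcg2, -0.18 to 0.37 for Sirpb1a, -0.46 to 0.16 for Syk, -0.27 to 0.40 for Tec, -0.033 to -0.0089 for Tyrobp, 0.074 to 0.15 for Trem2 and -0.58 to -0.00073 for Oscar, which was not tested. With the mean of its probe sets Syk differed by -0.33.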
